A study of Rattus norvegicus and Bos taurus with 12 samples.

Results

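The genes described here belong to the glutathione, thioredoxin and antioxidant systems. They were taken by gene symbol from 2 tables of RNA sequencing values, with a fixed set of name stems (among them Gst, Gpx, Prdx, Txn, Sod, Nqo, Hmox, Gcl, Mt, Msr and Sel, and the oxidase genes Nox4, Cybb and Cyba). The rule itself uses no measured value, but it was set with earlier results of these data known. The rule found 60 of the 7052 rat genes listed for adult rat ventricular myocytes (ARVM) and 10 of the 2115 bovine genes listed for cardiac fibroblasts (Cfib). In all 63 distinct symbols were found, 7 of them in both tables. The stem Sel also took 3 genes of cell adhesion (Sele, Selp and Selplg), which have no part in redox chemistry and are given apart.

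The Cfib came from the right ventricle of control calves (CO), kept at the ambient altitude of Denver, and of calves with pulmonary hypertension (PH), which were made hypertensive as neonates by hypobaric hypoxia. Both were low-passage cultures that were washed and kept without serum before RNA was taken. The ARVM came from Sprague Dawley rats and were either freshly isolated or kept for 7 days in conditioned medium of the PH Cfib (PH-CM). Each of the 4 groups had 3 libraries. Those of Cfib came from separate animals, whereas for ARVM the source of each library is not given in the sources used here, so p-values for ARVM measure the spread between libraries, which may be technical. The sample labels speak of serum of cows at low and high altitude, whereas the study's methods describe conditioned medium and CO and PH cells, and group names follow the methods. ARVM kept in culture without PH-CM were not analysed here, so time in culture and PH-CM cannot be told apart in the ARVM comparison.

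Cells hold hydrogen peroxide and reactive electrophiles in check with a pair of thiol systems that both draw electrons from NADPH. Glutathione is built from glutamate, cysteine and glycine, is kept reduced by glutathione reductase, and is spent by glutathione peroxidases on peroxides and by glutathione S-transferases on electrophiles. Thioredoxin is kept reduced by thioredoxin reductases and passes its electrons to peroxiredoxins, while superoxide dismutases turn superoxide into hydrogen peroxide upstream of both. The transcription factor NRF2 (gene Nfe2l2), which KEAP1 holds back, drives many of these genes. Cardiac myocytes are packed with mitochondria, a major source of superoxide, and carry mitochondrial forms of both systems.

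Both tables list only genes that the study selected for a difference between the groups. In each, 100% of the listed genes had groups that did not overlap, so a lack of overlap in a gene described below sets it apart from no other listed gene, and absence from a table does not mean that a gene was unchanged. The ARVM values are normalized counts (reads divided by 1 size factor per library), with 12122463 to 18842171 reads on the listed genes per library, and are not scaled by gene length, so their levels are compared between groups and not between genes. A floor of 3 reads lies at 2.27 to 4.75 normalized counts. The Cfib values carry a correction for the length of the gene and for the library, of the FPKM or TPM kind, and the depth of those libraries is unknown. The correlation between libraries of a group (log2 values, across genes, which are not independent replicates) was 0.974 to 0.978 for freshly isolated ARVM, 0.983 to 0.989 for PH-CM ARVM, 0.976 to 0.993 for CO Cfib and 0.997 to 0.998 for PH Cfib.

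The cell markers of the ARVM libraries moved with the groups, and their part in the results below was not tested. The summed normalized counts of 15 of 16 cardiomyocyte markers ranged from 1996823 to 2022107 in freshly isolated ARVM and from 225023 to 280577 in PH-CM ARVM, and 14 of them fell. Those of 13 of 14 fibroblast markers ranged from 5689 to 7240 and from 134979 to 196948, and those of 17 of 18 macrophage and leukocyte markers from 332 to 462 and from 9415 to 14180, with each of these genes higher in PH-CM ARVM. Endothelial markers (12 of 12 listed, 10 lower and 2 higher) summed to 11964 to 14340 and to 5076 to 5905. Erythrocyte markers (4 of 10 listed) summed to 2140 to 2548 and to 3.39 to 23.3, and the hemoglobin genes Hbb, Hbb-b1 and Hba1 were at 0 in every PH-CM library. In bulk RNA fewer cells of a type and less RNA per cell cannot be told apart.

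The first comparison asked how the ARVM transcriptome differed after 7 days in PH-CM. Redox genes were also grouped by compartment after the values had been seen, without a test. Of those placed in the endoplasmic reticulum lumen or the extracellular space, 7 of 8 were higher in PH-CM ARVM, by up to 32.6-fold. Of those placed in mitochondria, 7 of 8 were lower. The thioredoxin reductases, mitochondrial thioredoxin, glutathione reductase and the regulatory subunit of glutathione synthesis were lower, whereas several glutathione S-transferases and the NADPH oxidase genes Cybb, Cyba and Nox4 were higher. All 60 genes passed the test (limma on log2(value + 1), threshold 0.05 on p adjusted by Benjamini-Hochberg over all listed genes), as did 97.6% of all listed genes. Of the 60 genes, 26 (43.3%) were higher and 34 (56.7%) lower in PH-CM ARVM, against 53.9% and 43.7% of all listed genes. The median log2 fold change was -0.35 over the redox genes and 0.37 over all listed genes, and the median of its size was 1.28 against 0.96. A difference of at least 1 on the log2 scale was found for 36 of the 60 genes (60%), 20 higher and 16 lower, against 48.3% of all listed genes. Without the 3 adhesion genes it was found for 33 of 57 (57.9%), 19 higher and 14 lower, and the median size was 1.18. The plot of log2 fold changes by function shows every one of the 60 genes.

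**Figure D1:**
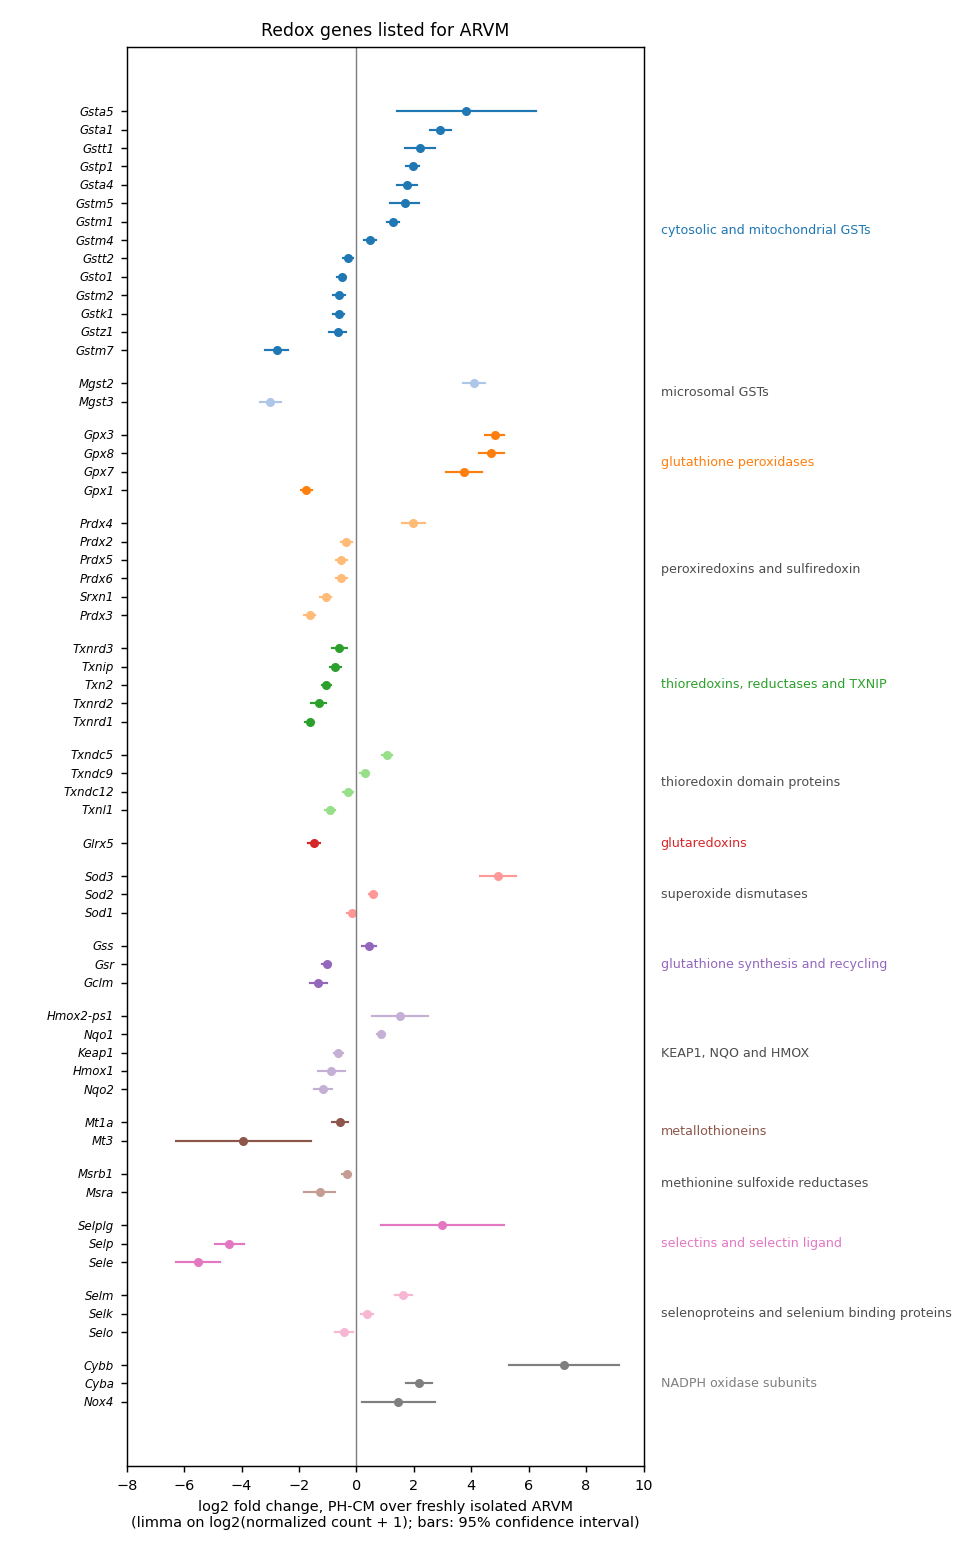
Log2 fold change of each redox gene in PH-CM ARVM against freshly isolated ARVM (horizontal axis), by functional group, with 95% confidence intervals from limma and 3 libraries per group; values right of 0 are higher in PH-CM ARVM. The glutathione peroxidases Gpx3, Gpx7 and Gpx8, Sod3 and Mgst2 lie at 3.74 to 4.92, while all 5 genes of the thioredoxin and reductase group lie left of 0.

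In what follows the values of a gene are normalized counts, given for freshly isolated ARVM con4, con5 and con6 and then for PH-CM ARVM ha2, ha209 and ha211 (the names of the libraries in the labels), and a difference is on the log2(value + 1) scale with its standard error (SE) and the adjusted p of limma. Some of the genes share a short promoter motif but not a direction, and 4 promoters are shown for that reason. They are the 250 bases before the RefSeq transcription start in the rat assembly GRCr8, on the strand of the gene. In the first 3, capitals mark the core of the antioxidant response element, the site at which NRF2 is known to bind (TGACNNNGC, searched on both strands). In the last, capitals mark the core of the metal response element (TGCACNC or TGCGCNC, both strands), the site of the metal-sensing factor MTF1. Gstp1 was higher in PH-CM ARVM, and Gclm, Txnrd1 and Mt1a were lower. The positions are chr1:210769706-210769955 (minus strand) for Gstp1, chr2:213031885-213032134 (plus strand) for Gclm, chr7:22755905-22756154 (minus strand, the second of the windows listed for the gene) for Txnrd1, and chr19:10832976-10833225 (minus strand) for Mt1a, which RefSeq names Mt1.
Gstp1: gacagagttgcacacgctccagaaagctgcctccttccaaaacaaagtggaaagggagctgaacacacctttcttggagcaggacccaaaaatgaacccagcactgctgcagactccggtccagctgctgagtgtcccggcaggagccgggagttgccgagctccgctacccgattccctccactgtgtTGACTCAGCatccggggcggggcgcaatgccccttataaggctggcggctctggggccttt
Gclm: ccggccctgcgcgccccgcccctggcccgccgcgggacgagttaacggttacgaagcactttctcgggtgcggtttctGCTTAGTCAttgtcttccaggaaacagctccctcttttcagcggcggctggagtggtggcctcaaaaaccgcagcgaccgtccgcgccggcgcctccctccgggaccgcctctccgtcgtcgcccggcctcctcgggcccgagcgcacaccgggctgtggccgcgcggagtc
Txnrd1: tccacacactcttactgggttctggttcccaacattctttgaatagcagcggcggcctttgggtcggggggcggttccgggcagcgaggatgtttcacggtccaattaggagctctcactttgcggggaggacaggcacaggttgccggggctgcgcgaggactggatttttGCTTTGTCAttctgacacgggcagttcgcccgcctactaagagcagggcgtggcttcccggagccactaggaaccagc
Mt1a: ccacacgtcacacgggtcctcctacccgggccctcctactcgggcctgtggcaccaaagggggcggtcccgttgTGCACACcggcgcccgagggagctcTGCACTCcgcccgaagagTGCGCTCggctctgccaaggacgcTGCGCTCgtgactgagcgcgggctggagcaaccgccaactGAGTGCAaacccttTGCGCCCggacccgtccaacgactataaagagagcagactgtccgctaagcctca

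The first letters of the Gstp1 core, TGACTCA, are also the AP-1 motif. The Mt1a promoter holds 6 metal response element cores, and some of these promoters hold letters of the motif that is not marked in them. In windows of 300 bases (250 before and 50 after the start), the antioxidant response element core was found for 13 of the 47 redox genes with a window (27.7%) and for 3602 of all 27457 genes with one (13.1%). Of the 13 genes, 7 were higher in PH-CM ARVM (Gsta1, Gstm5, Gstp1, Prdx4, Selk, Sod2 and Txndc5) and 6 were lower (Gclm, Gstm7, Gstz1, Mt1a, Prdx5 and Txnrd1). The metal response element core was found for 14 of the 47 (29.8%) and for 26.3% of all genes. A match is a run of letters and not evidence of binding. Of the 60 genes, 43 were matched to a promoter window by symbol, 4 by an older symbol and 13 by neither. The 13 without a window, among them Hmox1 and Gsr, were not searched.

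Among glutathione peroxidases, which reduce hydrogen peroxide and lipid peroxides, 3 were higher and 1 was lower in PH-CM ARVM. Gpx3, the secreted plasma form, counted 98.1, 116 and 132 in freshly isolated ARVM and 3228, 2859 and 3707 in PH-CM ARVM. It was 28.3-fold higher, by 4.81 on the log2 scale (SE 0.14, adjusted p = 1.2e-07), and its PH-CM libraries stood far above its fresh ones. Gpx8, a membrane-bound form of the endoplasmic reticulum, counted 98.1, 62.1 and 82.6 against 2117, 1836 and 2379, a 26.1-fold rise (4.70, SE 0.18, adjusted p = 3.74e-07). Gpx7, which also works in that compartment and takes part in oxidative protein folding, counted 44.3, 79.3 and 75.4 against 922, 666 and 1078, a 13.4-fold rise (3.74, SE 0.27, adjusted p = 8.47e-06). PH-CM ARVM ha209 was the lowest of its group for all 3 of these genes. Gpx1, the ubiquitous cytosolic and mitochondrial form, was named after its values were seen and counted 14381, 16230 and 14369 against 4947, 4156 and 4409. It was 3.33-fold lower (-1.74, SE 0.08, adjusted p = 9.76e-07), so the family did not move as 1 group.

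The superoxide dismutases differed in direction as well. Sod3, which is secreted and binds the extracellular matrix, counted 15.8, 13.9 and 10.3 against 489, 340 and 476. It was 32.6-fold higher (4.92, SE 0.27, adjusted p = 1.96e-06), and each fresh library held only a few reads above the floor. Sod2, the manganese enzyme of the mitochondrial matrix, counted 16128, 15801 and 14874 against 23318, 23219 and 23102. The rise was modest (0.57, SE 0.06, adjusted p = 7.26e-05) and the PH-CM libraries lay close together. Sod1, the cytosolic copper and zinc enzyme, counted 15267, 16372 and 16204 against 15023, 13995 and 13553, so that fresh ARVM con4 and PH-CM ARVM ha2 nearly met. Its difference of -0.17 (SE 0.07, adjusted p = 0.0358) was the smallest of the 60 in size and lost significance without fresh ARVM con5 (adjusted p = 0.117) or con6 (0.0979) and without PH-CM ARVM ha209 (0.0678) or ha211 (0.102).

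Peroxiredoxins, the thioredoxin-dependent peroxidases, were lower with 1 exception. Prdx4, the form of the endoplasmic reticulum, counted 253, 184 and 192 against 892, 675 and 925 and was 3.96-fold higher (1.98, SE 0.17, adjusted p = 2.37e-05). Prdx3, the mitochondrial form, counted 10627, 9337 and 8353 against 3133, 2945 and 3022 and was 3.11-fold lower (-1.63, SE 0.09, adjusted p = 1.83e-06). Srxn1, sulfiredoxin, restores overoxidized peroxiredoxins and counted 4729, 5243 and 5417 against 2573, 2530 and 2209 (-1.07, SE 0.08, adjusted p = 9.76e-06). Prdx2, Prdx5 and Prdx6 were lower by smaller amounts, with differences of -0.35, -0.53 and -0.53.

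The 5 genes of thioredoxin, its reductases and its inhibitor were all lower in PH-CM ARVM (median log2 fold change -1.05). Txnrd1, the cytosolic reductase whose promoter is shown above, counted 14898, 17244 and 16795 against 5334, 5391 and 5041. It was 3.1-fold lower (-1.63, SE 0.07, adjusted p = 6.13e-07), and its 3 PH-CM libraries lay within a narrow range. The mitochondrial reductase Txnrd2 counted 1158, 1154 and 998 against 451, 393 and 496 (-1.31, SE 0.11, adjusted p = 2.05e-05). Its substrate Txn2, mitochondrial thioredoxin, counted 3464, 3684 and 3515 against 1800, 1608 and 1758 (-1.05, SE 0.06, adjusted p = 3.09e-06). Reductase and substrate of the mitochondrial pair were thus both lower in each PH-CM library. Txnip, which binds thioredoxin and blocks it, counted 25065, 23479 and 24161 against 14076, 16215 and 13791, so the inhibitor fell as well (-0.73, SE 0.08, adjusted p = 8.07e-05). Txnrd3, a reductase best known from testis, differed by -0.59. Glrx5, a mitochondrial glutaredoxin of iron-sulfur cluster assembly, counted 4061, 4276 and 4002 against 1672, 1295 and 1497 and was 2.76-fold lower (-1.47, SE 0.09, adjusted p = 4.03e-06).

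Proteins that carry a thioredoxin domain were divided. Txndc5, a disulfide isomerase of the endoplasmic reticulum, counted 1836, 1984 and 1952 against 4180, 3593 and 4256 and was 2.08-fold higher (1.06, SE 0.08, adjusted p = 8.55e-06). Txnl1, a cytosolic protein that associates with the proteasome, counted 9071, 8170 and 8220 against 4498, 4806 and 4209 and was lower (-0.91, SE 0.07, adjusted p = 1.14e-05). Txndc9, which binds the chaperonin that folds actin and tubulin, counted 1124, 1186 and 1088 against 1351, 1442 and 1370 and was slightly higher (0.29, SE 0.07, adjusted p = 0.00323). Txndc12, of the endoplasmic reticulum, differed by -0.28.

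Glutathione synthesis and recycling held 3 listed genes. Gclm, the regulatory subunit of the enzyme that joins glutamate and cysteine, counted 1249, 1096 and 1100 against 463, 525 and 389 and was 2.5-fold lower (-1.33, SE 0.12, adjusted p = 3.07e-05). Gsr, glutathione reductase, counted 2246, 2077 and 2208 against 1028, 1127 and 1031, a fall of similar size (-1.04, SE 0.07, adjusted p = 4.35e-06). Gss, which adds the last residue of glutathione, counted 861, 856 and 964 against 1295, 1040 and 1281 and went the other way (0.43, SE 0.10, adjusted p = 0.00495). Gclc, the catalytic subunit that works with Gclm, was not among the listed genes.

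**Figure D2:**
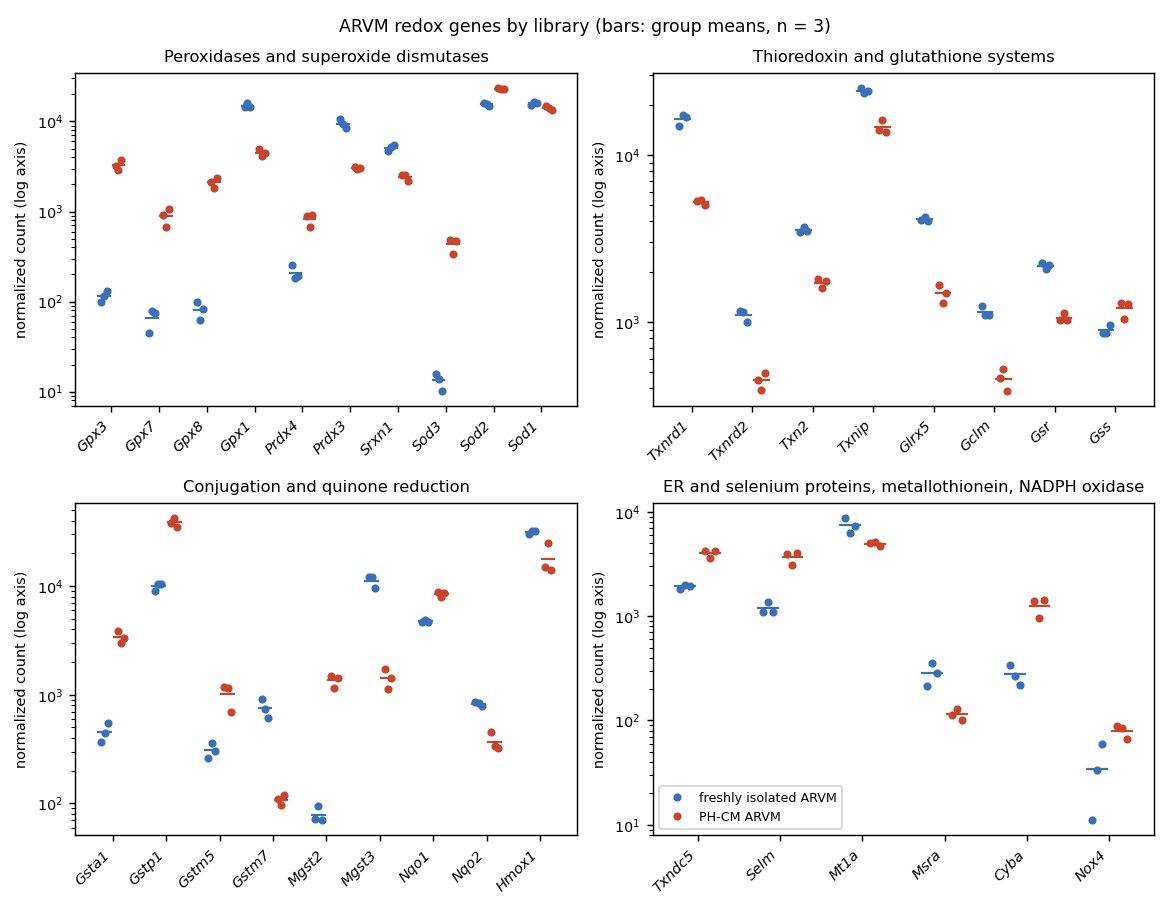
Normalized count per library (log axis) for redox genes in freshly isolated ARVM (blue) and PH-CM ARVM (red), with a bar at each group mean of 3 libraries. The peroxidases Prdx4, Gpx7, Gpx8 and Gpx3 rise by 3.96-fold to 28.3-fold, while Txnrd1, Txnrd2, Txn2, Glrx5, Gclm and Gsr drop by 2.05-fold to 3.1-fold.

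Glutathione S-transferases, which attach glutathione to electrophiles, were mixed, with 8 of 14 soluble forms higher and 6 lower and a median of 0.87. The alpha and mu genes have near-identical copies whose reads the counting may have split, and the symbol of an alpha gene can stand for different copies in different annotations, so the values of single Gsta and Gstm genes are uncertain. Gsta1 counted 366, 443 and 554 against 3867, 3020 and 3321 and was 7.49-fold higher (2.92, SE 0.16, adjusted p = 1.75e-06). Gsta5 was at 0 in fresh ARVM con4 and con5, at 13.4 in fresh ARVM con6 and at 43.9, 17.3 and 49.9 in PH-CM ARVM, so that the highest fresh and the lowest PH-CM library were close (3.83, SE 1.03, adjusted p = 0.008). Gstm7 counted 912, 743 and 616 against 109, 95.8 and 119 and was 7.01-fold lower (-2.78, SE 0.18, adjusted p = 4.31e-06). The mu class therefore held genes of both directions, since Gstm1, Gstm4 and Gstm5 were higher by 0.47 to 1.69 and Gstm2 was lower by -0.62.

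Gstp1, the pi class enzyme that is abundant in many proliferating and transformed cells, counted 9037, 10426 and 10359 against 38318, 42436 and 35203. It was 3.89-fold higher (1.96, SE 0.09, adjusted p = 9.77e-07), and this was the gene with the antioxidant response element core shown first above. Gsto1, an omega class enzyme that reduces dehydroascorbate, counted 2290, 2584 and 2310 against 1714, 1618 and 1707 and was lower (-0.51, SE 0.07, adjusted p = 0.000206). Gsta4 (1.75) and Gstt1 (2.21) were higher, and Gstk1, Gstt2 and Gstz1 were lower by -0.62, -0.28 and -0.64. The membrane-bound forms parted widely. Mgst2, which acts on lipid peroxides and in leukotriene synthesis, counted 71.2, 95.3 and 70.2 against 1482, 1158 and 1429, a 17.2-fold rise (4.09, SE 0.17, adjusted p = 4.71e-07). Mgst3 counted 12054, 12070 and 9615 against 1715, 1119 and 1413, a 7.94-fold fall (-3.00, SE 0.16, adjusted p = 1.57e-06).

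NRF2 itself was not among the listed ARVM genes. Keap1, its inhibitor, named after its values were seen, counted 1932, 2185 and 2188 against 1323, 1339 and 1402 and was lower (-0.63, SE 0.07, adjusted p = 8.06e-05). Nqo1, a quinone reductase that is commonly read as a marker of NRF2 activity, was named after its values were seen and counted 4708, 4867 and 4656 against 8861, 7961 and 8643 (0.84, SE 0.06, adjusted p = 7.19e-06). It rose while Srxn1, Txnrd1, Gclm and Gsr, which are also known NRF2 targets, fell. Nqo2, a related quinone reductase, counted 861, 843 and 790 against 451, 336 and 327 and was lower (-1.18, SE 0.14, adjusted p = 0.000109). Hmox1, the inducible heme oxygenase, counted 30105, 32242 and 32128 against 14924, 24764 and 13952. It was lower by -0.87 (SE 0.20, adjusted p = 0.00381), and PH-CM ARVM ha209 lay well above the other PH-CM libraries. Hmox2-ps1, a pseudogene whose reads cannot be told from those of its parent gene with certainty, counted 3.17, 9.64 and 6.2 against 16.6, 19.8 and 19.5 (1.52, SE 0.42, adjusted p = 0.00925) and was not called by DESeq2 (adjusted p = 0.0594).

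Metallothioneins, small cysteine-rich proteins that bind zinc and copper, were lower. Mt1a, whose promoter is shown above, counted 8729, 6230 and 7338 against 5078, 5089 and 4661 (-0.58, SE 0.12, adjusted p = 0.00193), and it has near-identical pseudogene copies. Mt3 counted 47.5, 38.6 and 28.9 in freshly isolated ARVM and 14.7 in PH-CM ARVM ha209, and was at 0 in PH-CM ARVM ha2 and ha211 (-3.95, SE 1.02, adjusted p = 0.00646). The methionine sulfoxide reductases, which repair oxidized methionine, were lower too. Msra counted 212, 359 and 286 against 114, 129 and 102 (-1.28, SE 0.23, adjusted p = 0.00103), and Msrb1, itself a selenoprotein, counted 2599, 2336 and 2245 against 1919, 1877 and 1848 (-0.34, SE 0.07, adjusted p = 0.00177).

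Of 3 selenoproteins under the stem Sel, 2 were higher and 1 was lower. Selm, of the endoplasmic reticulum lumen, counted 1095, 1368 and 1104 against 3927, 3097 and 4013 and was 3.09-fold higher (1.63, SE 0.12, adjusted p = 1.11e-05). Selk, in the membrane of that compartment, counted 3080, 2581 and 2760 against 3528, 4052 and 3345 (0.37, SE 0.09, adjusted p = 0.00533). Selo, a mitochondrial pseudokinase, counted 484, 505 and 437 against 338, 316 and 405 (-0.43, SE 0.13, adjusted p = 0.0124).

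NADPH oxidases make superoxide or hydrogen peroxide on purpose, and the 3 of their genes taken by symbol were higher, while the subunit gene Ncf1, from another list below, was lower. Cybb, the catalytic subunit of the phagocyte oxidase, was at 0 in fresh ARVM con4 and con6, at 7.5 (7 reads) in fresh ARVM con5 and at 290, 218 and 458 in PH-CM ARVM (7.24, SE 0.82, adjusted p = 9.57e-05). Cyba, its membrane partner, which also serves Nox4, counted 343, 269 and 221 against 1387, 961 and 1423 and was 4.52-fold higher (2.18, SE 0.20, adjusted p = 3.18e-05). The macrophage and leukocyte marker sum given above, whose cells are known to carry this oxidase, moved in the same direction, and its part in these values was not tested. Nox4, the form known from myocytes and fibroblasts, counted 11.1, 33.2 and 58.9 against 88.5, 85.4 and 66, so that fresh ARVM con6 and PH-CM ARVM ha211 were close. Its rise of 1.46 (SE 0.55, adjusted p = 0.0317) lost significance without PH-CM ARVM ha2 (adjusted p = 0.0988), ha209 (0.0888) or ha211 (0.0586).

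Among the adhesion genes, both selectins were lower and their ligand was higher. Sele, the endothelial selectin, counted 1101, 958 and 866 against 17.4, 13.8 and 34.7, a 44.4-fold fall (-5.51, SE 0.33, adjusted p = 3.01e-06). Selp, the selectin of platelets and endothelium, counted 1304, 1475 and 1266 against 76.4, 43.1 and 71.1, a 21.2-fold fall (-4.43, SE 0.22, adjusted p = 1.2e-06). The endothelial marker sum given above fell between the same libraries, and its part in these values was not tested. Selplg, the leukocyte ligand of the selectins, counted 6.33, 0 and 14.5 against 49.2, 27.6 and 38.9 (2.99, SE 0.92, adjusted p = 0.014) and lost significance without PH-CM ARVM ha2 (adjusted p = 0.0573). Without these 3 genes, 25 of 57 redox genes were higher and 32 lower.

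When the genes were grouped by where their proteins are known to work, a grouping made after the values had been seen and given without a test, the compartments differed in direction. Of 8 genes placed in the endoplasmic reticulum lumen or outside the cell, 7 were higher (Gpx3, Gpx7, Gpx8, Prdx4, Selm, Sod3 and Txndc5) and Txndc12 was lower, with a median of 2.86. Of 8 genes placed in mitochondria, 7 were lower (Glrx5, Gstk1, Prdx3, Prdx5, Selo, Txn2 and Txnrd2) and Sod2 was higher, with a median of -0.83. Gpx1 (-1.74), described above as cytosolic and mitochondrial, and the membrane proteins Selk (0.37), Mgst2 (4.09) and Mgst3 (-3.00) were placed in neither set. Gpx8, described above as membrane-bound, was nevertheless kept in the first set, so the placing was not uniform and the counts depend on it. The cardiomyocyte marker sum fell and the fibroblast marker sum rose between the same libraries, and their part in this split was not tested.

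The wider pathway was read from 6 lists of other genes. All listed members of these lists passed the test in ARVM, which 97.6% of all listed genes did. Of 16 listed genes of NADPH supply, 9 were higher and 7 lower. Aldh1l2, a mitochondrial enzyme of folate metabolism that yields NADPH, counted 22.2, 25.7 and 15.5 against 952, 747 and 1087 (44-fold higher, 5.40, SE 0.25, adjusted p = 8.57e-07), and its cytosolic relative Aldh1l1 counted 0, 8.57 and 0 against 83.9, 66.4 and 166 (5.54, SE 0.89, adjusted p = 0.000594). Idh2, the NADPH-making isocitrate dehydrogenase of mitochondria, counted 40514, 41039 and 45620 against 6455, 6082 and 5935 and was 6.88-fold lower (-2.78, SE 0.07, adjusted p = 1.04e-07). Named after their values were seen, Pgd (1.30) and Tkt (1.49) of the pentose phosphate pathway were higher, while of other mitochondrial genes of the list Nnt (-2.21), Me3 (-2.68) and Nadk2 (-0.72) were lower and Me2 (1.92) and Mthfd2 (0.92) higher.

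Glutathione precursor supply, export and breakdown had 13 of 16 listed genes higher. Dpep1, a dipeptidase that splits cysteinylglycine, counted 6.33, 4.28 and 10.3 against 662, 556 and 631 (6.34, SE 0.32, adjusted p = 1.26e-06). Ggt1, which breaks down glutathione at the cell surface, was without a read in con4, con5 and con6 and counted 56.7, 24.2 and 44 in PH-CM ARVM, at least 35.1-fold higher against a floor of 3 reads over the fresh group. Anpep, an aminopeptidase, counted 7.91, 16.1 and 10.3 against 221, 199 and 267 (4.25, SE 0.32, adjusted p = 9.9e-06). These enzymes of extracellular breakdown were thus higher, while of the synthesis and recycling genes Gclm and Gsr were lower and Gss higher. Named after their values were seen, Cth (2.33), Slc1a4 (1.33), Slc7a11 (1.12), Slc3a2 (0.57) and Slc1a5 (0.44) of precursor supply were higher as well. The 3 lower genes of the list were Abcc1 (-0.22), Lap3 (-0.51) and Mat2a (-0.32).

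Of 20 listed genes of other peroxide, radical and aldehyde defense, 8 were higher and 12 lower. The largest differences were those of Cp (ceruloplasmin, a ferroxidase, 3.94, SE 0.17), Cbr1 (carbonyl reductase, -1.79, SE 0.16) and Tmx4 (a thioredoxin-related membrane protein of the endoplasmic reticulum, -1.77, SE 0.09). Catalase (Cat), named after its values were seen, counted 9264, 8027 and 9013 against 4916, 7132 and 4464 (-0.70, SE 0.16, adjusted p = 0.00398), again with PH-CM ARVM ha209 the highest of its group. Of 16 listed NRF2 targets and regulators, 7 were higher and 9 lower, led by Ephx1 (epoxide hydrolase, 3.98, SE 0.12), Cbr3 (3.37, SE 0.36) and Ugdh (1.89, SE 0.15).

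Of 8 listed selenoproteins under older symbols and genes of selenoprotein synthesis, 5 were higher and 3 lower. Dio3, a selenoenzyme that inactivates thyroid hormone, counted 3.17, 0 and 0 against 428, 419 and 498. Sep15 and Scly were each higher by 0.85. Of 8 listed oxidase partners and other oxidases, 7 were higher, led by the phagocyte oxidase genes Ncf4 (5.27, SE 0.70) and Rac2 (4.63, SE 0.39) and by the aldehyde oxidase Aox1 (4.05, SE 0.34). The exception was Ncf1, a phagocyte oxidase subunit named after its values were seen, which counted 1374, 1429 and 1458 against 667, 524 and 695 (-1.19, SE 0.11, adjusted p = 3.53e-05).

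The second comparison asked how Cfib of PH calves differed from those of CO calves. In PH Cfib the superoxide dismutase SOD2 and the microsomal transferase MGST1 were lower by 8.81-fold and 7.52-fold, and GSTO1 was 15.3-fold higher. All 10 redox genes passed the test, as did 97.5% of all listed genes, with 6 higher and 4 lower against 58.2% and 39.4%. With libraries rescaled to equal medians of ratios, 5 were called higher and 4 lower, against 840 and 869 of all listed genes. A difference of at least 1 on the log2 scale was found for 5 of the 10, against 34% of all listed genes. Their median difference was 0.43 on the log2 scale, against 0.33 over all listed genes. The listed fibroblast markers (4 of 14) summed to 1957 to 2625 in CO Cfib and 6253 to 6548 in PH Cfib, in the units of the table. Those of macrophages (7 of 18) summed to 12.9 to 15.7 and 20 to 21.8, with 6 of them higher and CD14 lower (-1.42) in PH Cfib and with C1QA and C1QB at 0 in CO Cfib, and no cardiomyocyte or erythrocyte marker was listed. ESAM, the listed endothelial marker, ranged from 5.58 to 7.54 and from 2.03 to 2.94.

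Values of a gene in Cfib are length-scaled levels, given for CO Cfib 1, 2 and 3 and then for PH Cfib 1, 2 and 3. SOD2, the mitochondrial dismutase, stood at 1687, 1644 and 2308 against 166, 254 and 220 (-3.14, SE 0.20, adjusted p = 2.77e-05), with CO Cfib 3 the highest. MGST1, a membrane-bound transferase and peroxidase, stood at 183, 152 and 240 against 25.8, 24.8 and 25.9 (-2.84, SE 0.16, adjusted p = 1.56e-05). CO Cfib 3 was again the highest library, and the PH Cfib libraries lay close together. GSTO1 stood at 4.2, 3.74 and 6.81 against 72.7, 72.6 and 81.1 (3.72, SE 0.19, adjusted p = 1.08e-05), the largest rise of the 10.

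Of the thioredoxin system in Cfib, the inhibitor and the reductase were higher and the mitochondrial peroxidase was lower. TXNIP stood at 76.9, 92.1 and 68.5 against 186, 186 and 195 (1.25, SE 0.11, adjusted p = 9.59e-05). TXNRD1 stood at 82.8, 80.5 and 72.7 against 129, 118 and 116 (0.61, SE 0.07, adjusted p = 0.00038). PRDX3 stood at 69.6, 70.9 and 85.1 against 41.2, 40.7 and 45.6 (-0.80, SE 0.09, adjusted p = 0.000326). TXNIP thus had the larger of the 2 rises, and no thioredoxin gene was among the 10. The disulfide isomerase TXNDC5 stood at 411, 384 and 389 against 688, 695 and 665 (0.79, SE 0.07, adjusted p = 0.000122). The splicing protein TXNL4B, which shares the thioredoxin fold, stood at 17.5, 16.7 and 19.8 against 12.3, 13.8 and 12.6 (-0.45, SE 0.09, adjusted p = 0.00263). For this gene the CO and PH libraries were separated by a narrow margin.

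GPX3 stood at 5.89, 6.33 and 4.3 in CO Cfib against 17.6, 17.1 and 16.5 in PH Cfib (1.49, SE 0.13, adjusted p = 9.86e-05), a 3.1-fold rise. NFE2L2, the gene of NRF2, stood at 92.9, 95 and 92.3 against 108, 113 and 114. Its difference of 0.25 (SE 0.05, adjusted p = 0.00364) was the smallest of the 10. When the libraries were rescaled by the median of ratios, which moved the median of all listed Cfib genes by -0.27 on the log2 scale, it was -0.03 (adjusted p = 0.587), so its direction depends on the scaling. On the per-length scale of the table, SOD2 was the most abundant of the 10 genes in CO Cfib and TXNDC5 in PH Cfib, while TXNL4B, GPX3 and GSTO1 were the lowest in CO Cfib.

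**Figure D3:**
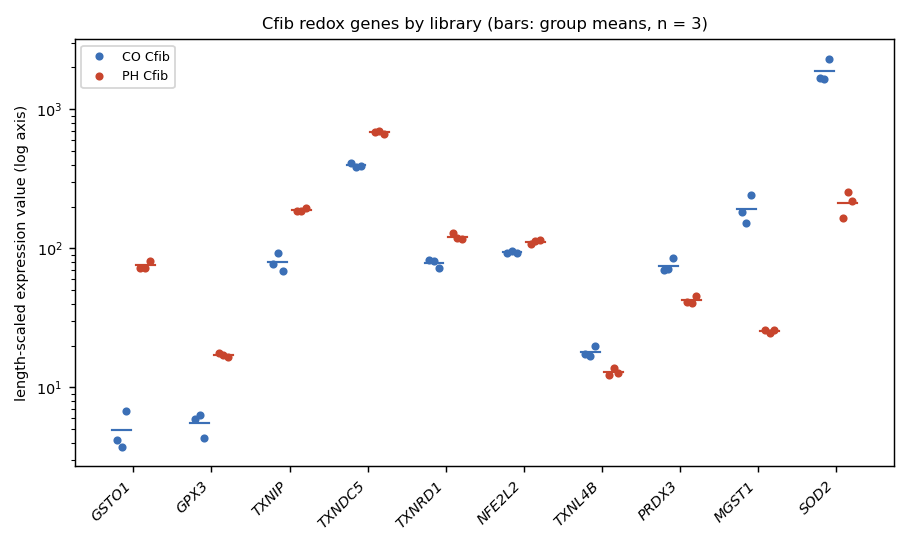
Length-scaled level per library (log axis) of the 10 redox genes listed for Cfib, for CO calves (blue) and PH calves (red), with a bar at each group mean of 3 libraries. SOD2 and MGST1 drop by 8.81-fold and 7.52-fold and GSTO1 rises 15.3-fold, while NFE2L2 differs by 1.19-fold.

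Of the other pathway genes in Cfib, NADPH supply had 6 listed, of which 5 were lower, among them ME1 (malic enzyme, -1.06, SE 0.08) and IDH1 (-0.84, SE 0.10), while ALDH1L2 was higher (0.82, SE 0.16). Glutathione precursors, export and breakdown had 8 listed, 3 higher and 5 lower. The largest differences on the log2(value + 1) scale were those of SLC1A4 (a neutral amino acid transporter, 0.89, SE 0.23), CTH (which makes cysteine, -0.71, SE 0.11) and GGT6 (-0.61, SE 0.14). GGT6 had low mean levels of 1.16 in CO Cfib and 0.41 in PH Cfib. This was a 2.83-fold fall, against a 1.82-fold rise of SLC1A4, so the order depends on the scale. Among peroxide and aldehyde defense genes, PON3 (-1.16) and UCP2 (-0.90) were lower and GLO1 (0.49) was higher. PON3 went from a mean level of 1.45 in CO Cfib to 0.0972 in PH Cfib (14.9-fold), and UCP2 from 13.3 to 6.63 (2-fold). Of 5 NRF2 targets and regulators, EPHX1 (2.03) and MAFK (a partner of NRF2 on DNA, 0.88) were called higher, FTH1 (ferritin heavy chain, -1.70) and NFE2L3 (a relative of NRF2, -2.37) were called lower, and CUL3, part of the ligase that degrades NRF2, was not called (0.14, SE 0.06, adjusted p = 0.0549). CUL3 and MAFK were named after their values were seen. The selenium transport protein SEPP1 was higher (0.95) and SCLY lower (-0.61). Of the oxidases AOX1 was higher (2.19) and NCF4 (-1.43) and MAOB (-1.04) were lower. NCF4 went from a mean level of 8.08 in CO Cfib to 2.32 in PH Cfib (3.49-fold), and MAOB from 1.24 to 0.0813 (15.3-fold). The folds of GGT6, PON3 and MAOB are uncertain, since their levels are low and the depth of the libraries is unknown.

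The 7 genes listed in both tables made up 11.7% of the redox genes listed for ARVM and 70% of those listed for Cfib, against 16.7% and 55.7% for all listed genes. The comparisons share no library and differ in species, cell and contrast, so their values are set side by side and their difference was not tested. Of the 7, 3 went in the same direction. GPX3 was higher in both, by 4.81 in PH-CM ARVM and 1.49 in PH Cfib on the log2 scale, and so was TXNDC5, by 1.06 and 0.79. PRDX3 was lower in both, by -1.63 and -0.80. The other 4 went opposite ways. TXNRD1 (-1.63 and 0.61), TXNIP (-0.73 and 1.25) and GSTO1 (-0.51 and 3.72) were lower in PH-CM ARVM and higher in PH Cfib. SOD2 was higher in PH-CM ARVM (0.57) and lower in PH Cfib (-3.14). None of the 7 changed direction under the median-of-ratios scaling of either table.

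**Figure D4:**
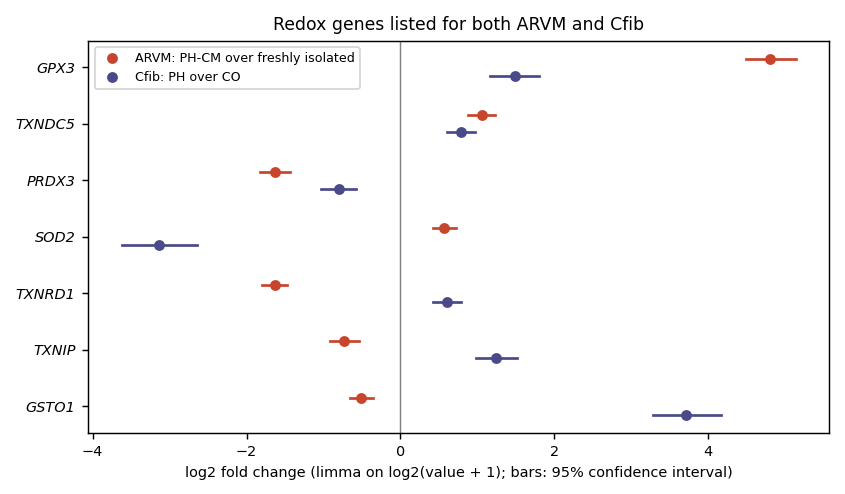
Log2 fold change with 95% confidence intervals (limma, 3 libraries per group) of the 7 redox genes listed in both tables, in PH-CM against freshly isolated ARVM and in PH against CO Cfib. GPX3 and TXNDC5 lie right of 0 and PRDX3 left of 0 in both, and the other 4 lie on opposite sides.

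On the recovered ARVM reads, edgeR called all 60 redox genes and 96.6% of all listed genes, and DESeq2 called 59 and 94.6%, missing Hmox2-ps1. In both tools every one of the 60 kept its direction. With 3 libraries against 3, an exact permutation test of a single gene cannot go below p = 0.1 (two-sided), so calls rest on the spread that limma shares across genes.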

How the data were processed

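The members were chosen by symbol, and they, their grouping and the other lists were chosen with earlier results of these data known. RNA was depleted of ribosomal RNA and sequenced on a HiSeq4000. The authors aligned reads with HISAT2 and StringTie to RN6 (ARVM) and BosTau8 (Cfib), normalized with the geometric method of DESeq2, and listed genes with a value above 1 in a condition that passed an unequal-variance test at 0.05. The submitters' processing notes name HISAT2, StringTie and DESeq2 without versions. The strand setting of the counting is not given in the sources used here.

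As deposited, each ARVM value is a signal, namely the reads of a gene over the size factor of its library, and 100% were whole multiples of 1 read within 0.01 reads, which gave the reads. For Cfib the deposited signal is corrected for gene length and library size, and its exact unit was not settled. Both tables also hold p-values of the authors, which were not used. The depth of whole libraries is unknown, and floors cover counting error only.

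Groups were taken from the sample titles. The main test was limma 3.58.1 in R 4.3.3, with a mean-variance trend, run on log2(value + 1), which understates the change of low genes, with Benjamini-Hochberg adjustment over all listed genes and a threshold of 0.05, two-sided. Because each table is a selection made on the difference itself, adjusted p-values refer to selected genes and not to all genes measured. The alternatives were pseudocounts of 0.1 and 10, a minimum mean (50 for ARVM, 5 for Cfib), rescaling by the median of ratios, no trend, a minimum absolute log2 fold change of 1, each library left out, and, for Cfib, a replicate block and the PH libraries averaged into 1 sample. Reads recovered for ARVM also went through edgeR 4.0.16 (TMM and the quasi-likelihood test, with and without its low-count filter) and DESeq2 1.42.0. The fits were tested on simulated data. Tables and figures used Python 3.11.15, numpy 2.4.6, pandas 2.3.3 and matplotlib 3.10.9.

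Values in each library are given for genes in both tables, for up to 3 genes with the largest change per functional group and table (for ARVM, where the higher group has a mean of 10 or more), and for genes whose promoter is printed. Up to 3 genes per pathway list and table are named. Other genes are marked as chosen after their values were seen. Promoters are from RefSeq, GRCr8. No bovine reference and no protein sequence was used here.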

Additional observations from a re-analysis of the deposited data

How the results depend on the processing

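Over the alternatives the number of redox genes called in ARVM ranged from 56 to 60 (58 to 60 when each library was left out in turn, with 24 to 26 higher and 33 to 34 lower), and 824 of 836 log2 fold changes of single genes kept their direction and their side of the threshold. With a minimum absolute log2 fold change of 1 the count was 36, of which 16 were lower, and in Cfib it was 5, with 3 higher and 2 lower. The minimum mean removed 4 ARVM genes. The 12 losses concerned Hmox2-ps1, Selplg (also at a pseudocount of 0.1, adjusted p = 0.0539), Sod1 and Nox4 (also without a trend, adjusted p = 0.0753 and 0.0523 in limma), and no ARVM gene turned. In Cfib all 10 genes stayed called when each library was left out, 9 were called under the median of ratios and 8 with the PH libraries averaged, where TXNL4B (adjusted p = 0.0732 in limma) and NFE2L2 (0.0952) were lost. That last fit has 1 PH sample, assumed to vary as the CO samples do. NFE2L2 reversed to -0.03 under the median of ratios, a scaling that moved the median of all listed genes by -0.27, and the cause was not tested.

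The Cfib libraries share replicate numbers 1 to 3. With a replicate block in the fit, 10 genes were called, 6 higher and 4 lower, as without it. The deviations of libraries of equal number correlated at 0.258, 0.0312 and 0.259, so the numbers were not taken to pair the samples. No paired analysis was possible because the ARVM groups share no replicate number.

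Both tables hold only genes selected for the difference, so calls say little and sizes and directions carry the description. The ARVM contrast joins PH-CM, time in culture and the shift in cell markers. Genes near the floor of 3 reads have uncertain folds. Among the redox genes these are Mt3, Cybb, Selplg and Gsta5, each with a library at 0, and Hmox2-ps1, at 3.17 in fresh ARVM con4 against a floor of 4.75. Of the pathway genes named above, Dio3, Aldh1l1, Ncf4 and Ggt1 each had a fresh library at 0.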
